A study of Mus musculus with 2 samples.

Results

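The 9 genes described here act in the assembly of the B-cell receptor and in the early steps of B-cell development: Rag1, Rag2, Dntt, Igll1, Vpreb1a, Vpreb3, Ebf1, Pax5 and Il7r. They were taken by symbol from the 57126 features that carry a gene symbol, and all 9 were found. Their unique molecular identifiers (UMIs, counts of single captured RNA molecules) were followed through 4 gates of B-lineage cells and through the other cell types of mouse alveolar bone, the jaw bone around the roots of the teeth. The study used healthy C57BL/6J mice of 6 to 8 weeks, with no genetic change named in the labels. In the orthodontic group a nickel-titanium coil spring pulled the upper right first molar at 25 g, and in the control group the spring was attached without force. On day 7 the molar was removed, bone within 1 mm of its socket was digested for 60 min, and the bone of 6 mice was pooled per group, from 12 mice in all. The labels do not tie either of the 2 single-cell libraries to a group, so the libraries are called library 1 and library 2, each is given on its own, and force is not compared with control.

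B cells are made in the marrow in an ordered series of steps. In pro-B cells the recombinase made of the RAG1 and RAG2 proteins joins gene segments into a heavy chain gene, and the polymerase encoded by Dntt adds bases at the joints. The new heavy chain is then tested at the cell surface with a surrogate light chain, built from the products of Igll1 and a Vpreb1 gene, and cells that pass divide as large pre-B cells. Division ends, the RAG genes are used again to join a light chain gene, and the cell shows its full receptor as an immature B cell. Ebf1 and Pax5 encode transcription factors that set up and hold the B-cell programme, and Il7r encodes the receptor through which the cytokine IL-7 sustains early B cells.

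Library 1 held 77572847 UMIs of named genes and 9587 called cells, and library 2 held 116775367 UMIs and 11132 cells, with medians of 3175 and 4667.5 UMIs per cell. Of the called barcodes, 65 occurred in both libraries, where 60.3 would be shared if they were drawn at random from all possible barcodes. Each library is 1 pool without replicates, so no test was made. Levels are UMIs summed over cells and given as CPM, the UMIs of a gene per 1000000 UMIs of those cells, with no scaling to gene length. Intervals are exact 95% Poisson or Clopper-Pearson intervals and cover counting error only.

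The genes of the surrogate light chain were low where heavy chain RNA was high, while Vpreb3, a related gene, was not, so the 250 bases before the start of each of these genes are shown. They are RefSeq sequences of build GRCm38.p6, 5′ to 3′ on the strand of the gene. Capitals mark matches, on either strand, to the core letters CCCNNGGG of sites bound by EBF1 or to CAGGTG, the E-box form bound by E2A. Igll1 (chr16:16863986-16864235) and Vpreb1a (chr16:16869256-16869505, under the symbol Vpreb1) lie next to each other on the minus strand, Vpreb1b (chr16:17980315-17980564, under the symbol Vpreb2) on the plus strand, and Vpreb3 (chr10:75948050-75948299) on the plus strand.
Igll1: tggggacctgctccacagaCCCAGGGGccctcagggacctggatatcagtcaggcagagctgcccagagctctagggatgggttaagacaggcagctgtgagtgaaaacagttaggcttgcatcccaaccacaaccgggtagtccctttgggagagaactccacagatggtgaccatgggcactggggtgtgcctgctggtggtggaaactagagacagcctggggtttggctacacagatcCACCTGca
Vpreb1a: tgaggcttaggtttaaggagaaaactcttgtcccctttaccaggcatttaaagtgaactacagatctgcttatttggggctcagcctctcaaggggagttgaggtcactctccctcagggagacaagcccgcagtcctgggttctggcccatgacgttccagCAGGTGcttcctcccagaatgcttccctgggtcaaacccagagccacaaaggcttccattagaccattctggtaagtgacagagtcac
Vpreb1b: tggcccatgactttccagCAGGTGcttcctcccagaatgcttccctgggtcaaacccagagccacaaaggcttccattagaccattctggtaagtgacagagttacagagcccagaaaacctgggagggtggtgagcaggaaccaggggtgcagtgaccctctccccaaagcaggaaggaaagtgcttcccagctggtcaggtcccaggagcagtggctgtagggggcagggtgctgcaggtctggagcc
Vpreb3: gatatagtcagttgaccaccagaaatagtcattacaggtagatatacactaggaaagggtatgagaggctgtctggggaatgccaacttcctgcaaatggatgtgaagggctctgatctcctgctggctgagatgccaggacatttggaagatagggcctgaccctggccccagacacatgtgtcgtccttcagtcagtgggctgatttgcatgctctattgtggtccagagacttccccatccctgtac
The Igll1 window held 1 match to the EBF1 core and 1 E-box, and the windows of Vpreb1a and Vpreb1b held 1 E-box each. The Vpreb3 window held neither. Of 32851 promoter windows of 300 bases, 13.7% held the EBF1 core and 20.2% the E-box, so a match is common. Over the 300 bases, Rag1 also held 1 E-box, and the windows of Rag2, Dntt, Ebf1, Pax5 and Il7r held neither. The Vpreb1a and Vpreb1b windows share an unbroken run of 91 bases, which ends 3 bases before the start of Vpreb1a and 147 bases before that of Vpreb1b. The transcripts of these paralogs are identical at 97.5% of 759 aligned bases, and at 96.5% of their last 200 bases. How the authors assigned reads between near-identical genes is not given in the sources used here, so the split of counts between Vpreb1a and Vpreb1b is uncertain.

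B-lineage cells were gated with genes other than the 9. A cell was gated if it had at least 1 UMI each of Cd79a and Cd79b, which encode the signalling pair of the B-cell receptor, and at least 5 UMIs of the pair per 10000. Cells with at least 2 UMIs of Ighd, the IgD heavy chain gene, were called mature. The others were called immature, pre-B or pro-B by their Ighm, the IgM heavy chain gene, at 30 or more, at 5 to under 30, or at under 5 UMIs per 10000. The gates held 35 pro-B, 207 pre-B, 403 immature and 136 mature cells in library 1, which is 8.15% of cells (7.61 to 8.71). Library 2 had 21 pro-B, 199 pre-B, 783 immature and 161 mature cells, or 10.5% (9.89 to 11.0). The gates are ranges on a scale: 47 and 70 pre-B cells lay within 20% of the upper Ighm limit, and 57 and 76 mature cells had exactly 2 Ighd UMIs. Median UMIs per cell ran from 2068 in the immature to 3148 in the pre-B gate of library 1, and from 2085 to 4137 in the same gates of library 2.

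The data went against some gate names. Clustering of all cells, done without the 9 genes and the 4 gating genes, gave 3 B-lineage clusters. The Bfsp2 cluster, named after a leading gene outside the 9, held 299 and 303 cells with 1620 and 1788 CPM of the division marker Mki67. The Niban3 cluster held 353 and 538 cells, with 78.1 and 109 CPM of Mki67 and the highest Ighm, at 7301 and 8262 CPM. The Ms4a1 cluster held 448 and 482 cells, with 1015 and 1614 CPM of Ms4a1, which encodes the mature B-cell protein CD20, and 754 and 491 CPM of Ighd. Only 8 and 6 cells of the pro-B gate lay in the Bfsp2 cluster, whereas 48.6% and 38.1% lay in the Ms4a1 cluster, so its name stands for low Ighm UMIs and not for a cell type. The summed markers of mature neutrophils stood at 2466 and 3415 CPM in it, against 31166 and 33464 CPM in mature neutrophil-like cells. In library 2 the pro-B gate also held 69099 CPM of the IgA heavy chain gene Igha and 12593 CPM of the joining chain gene Jchain, with 1 cell at 20 or more Jchain UMIs. The pre-B gate held 1284 and 6071 CPM of summed immature neutrophil markers, against 111659 and 126591 CPM in immature neutrophil-like cells. Of its cells, 6 and 21 lay outside the B-lineage clusters. Of the pre-B gate, 59.9% and 58.3% lay in the Bfsp2 cluster, of the immature gate 55.3% and 54.7% in the Niban3 cluster, and of the mature gate 66.2% and 63.4% in the Ms4a1 cluster. The immature gate also had 24.6% and 30.5% of its cells in the Ms4a1 cluster and 19.4% and 13.3% in the Bfsp2 cluster. Its Il2ra, the gene of CD25, stood at 61.7 and 69.0 CPM, against 13.7 and 7.84 CPM in the pre-B gate. Its name thus stands for a range of Ighm UMIs and not for 1 cell stage.

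**Figure D1:**
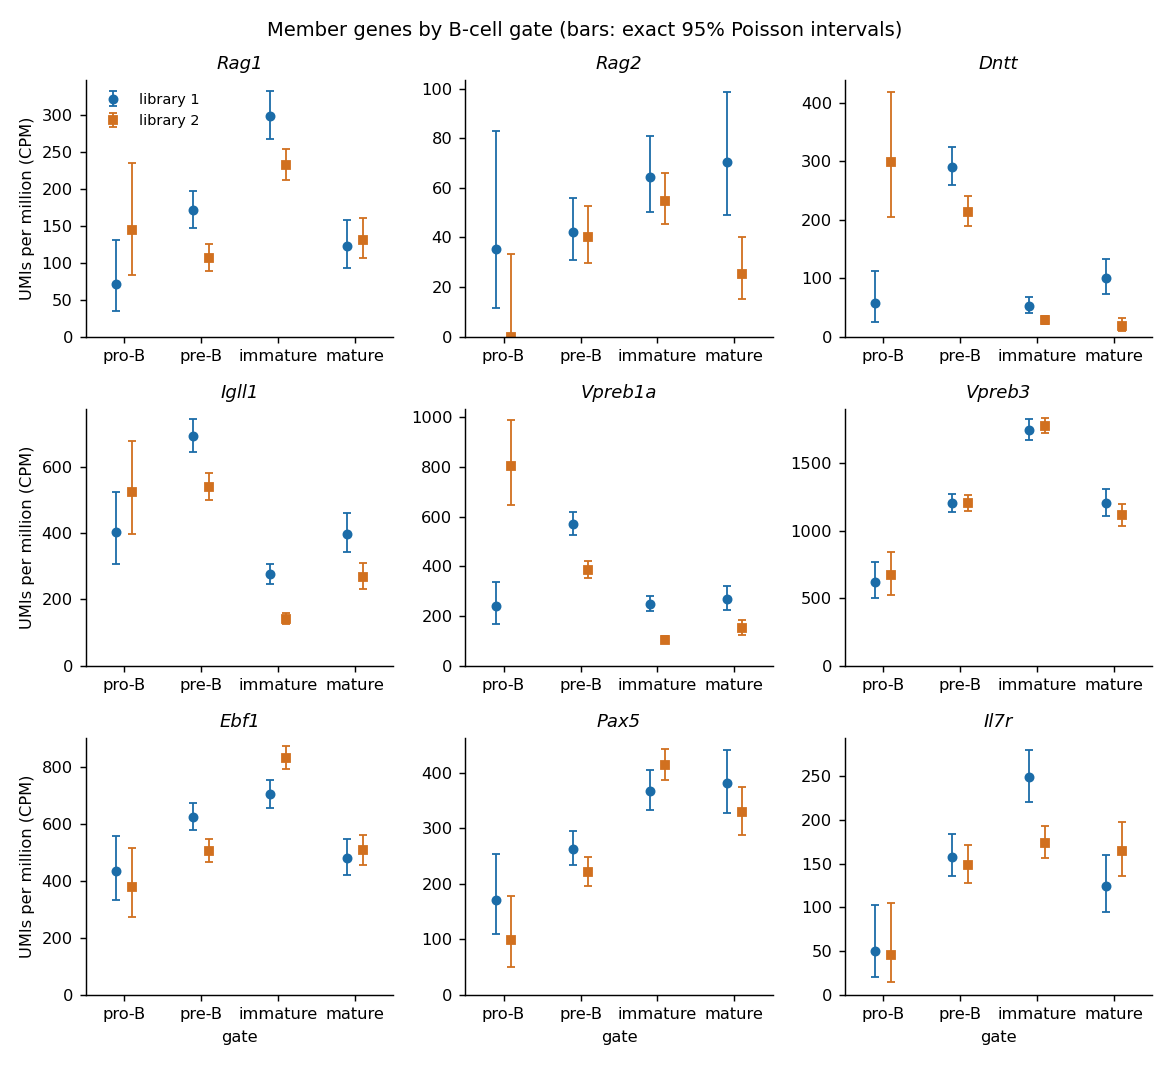
Level of each of the 9 genes, in CPM on a linear axis from 0, in the pro-B, pre-B, immature and mature gates of library 1 (circles) and library 2 (squares), with exact 95% Poisson intervals. Rag1, Vpreb3, Ebf1 and Il7r peak in the immature gate in both libraries and Igll1 in the pre-B gate, and the pro-B gate has the widest intervals.

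Rag1 was highest in the immature gate of both libraries, while Rag2 peaked in the mature gate of library 1 and the immature gate of library 2. Rag1, the catalytic part of the recombinase, stood at 70.9 (34.0 to 130), 171 (147 to 197), 298 (267 to 332) and 122 (93.2 to 158) CPM in the pro-B, pre-B, immature and mature gates of library 1. In library 2 it stood at 145 (82.6 to 235), 106 (88.7 to 125), 232 (212 to 254) and 131 (106 to 160) CPM. The immature gate led in both libraries, and its interval did not overlap that of the pre-B gate in either. Rag2, the partner of Rag1, was rarer, at 35.4, 42.0, 64.3 and 70.6 CPM in library 1 and at 0, 40.0, 54.9 and 25.3 CPM in library 2. The interval of the 0 in the pro-B gate of library 2 reaches up to 33.3 CPM. The immature interval of Rag2 in library 1, 50.3 to 81.0 CPM, overlapped those of the neighbouring gates.

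A Rag1 UMI was more frequent in cells with a Rag2 UMI. Of gated cells with a Rag2 UMI, 58.6% (48.2 to 68.4) of 99 cells in library 1 and 63.9% (54.6 to 72.5) of 119 cells in library 2 also had a Rag1 UMI, against 24.8% and 25.6% of the gated cells with no Rag2 UMI. The shares depend on depth, since a deeper cell shows more of both genes. Of immature gate cells, 34.2% and 31.9% had a Rag1 UMI, or an expected 22.4% and 19.3% when each cell is thinned to 1000 UMIs. In mature neutrophil-like cells, which should lack the gene, the share was 0.217% of 2307 cells with a median of 2045 UMIs in library 1. In library 2 it was 0 of 1361 cells with a median of 3037 UMIs.

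Dntt and the surrogate light chain genes were higher in the pre-B than in the immature gate. Dntt, which encodes terminal deoxynucleotidyl transferase, stood at 56.7 (24.5 to 112), 290 (259 to 324), 52.7 (40.1 to 68.0) and 99.6 (73.5 to 132) CPM in the pro-B, pre-B, immature and mature gates of library 1. In library 2 it stood at 298 (205 to 419), 213 (189 to 240), 27.9 (21.2 to 36.0) and 18.3 (9.74 to 31.3) CPM. The pre-B gate thus stood above the immature gate in both libraries. The mature gate values of Dntt rest on 48 UMIs in 4 cells and 13 UMIs in 4 cells. Igll1, which encodes the lambda5 part of the surrogate light chain, stood at 404, 693, 275 and 399 CPM in library 1 and at 524, 538, 141 and 269 CPM in library 2. Vpreb1a, which encodes the VpreB part, stood at 241, 571, 248 and 270 CPM in library 1 and at 804, 387, 105 and 152 CPM in library 2. Both genes were lower in the immature than in the pre-B gate in both libraries. Vpreb1b, the paralog of Vpreb1a, was rarer. It stood at 14.2, 68.5, 23.2 and 10.4 CPM in library 1 and at 72.3, 51.7, 7.09 and 22.5 CPM in library 2. It too was lower in the immature than in the pre-B gate in both libraries. Its mature gate values rest on 5 UMIs in 3 cells and 16 UMIs in 4 cells.

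The products of Igll1 and Vpreb1a pair in 1 complex, and their RNAs were found in the same cells. Of gated cells with a Vpreb1a UMI, 78.5% (72.0 to 84.0) of 195 cells and 85.8% (79.5 to 90.8) of 162 cells had an Igll1 UMI, against 5.12% and 4.39% of those without. Of cells with Igll1, 38.8% and 35.0% had Dntt, against 0.502% and 0.510% of cells without Igll1. Dntt-positive cells held 70.9 and 219 CPM of Igkc, the kappa light chain gene, against 3205 and 5122 CPM in gated cells with no Dntt UMI. The 5122 CPM includes cells of the pro-B gate of library 2, which held 62866 CPM of Igkc at a median of 1 UMI per cell. That gate had 1 cell with 20 or more Jchain UMIs. Median depth was 4628 and 4420 UMIs in Dntt-positive cells, against 2172 and 2254 UMIs in the others. The part of depth in these shares was not tested.

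Vpreb3, Pax5 and Ebf1 were present in every gate. Vpreb3, which encodes a VpreB-like protein that joins newly made receptor chains inside the cell, had the most UMIs of the 9 over all gated cells, and stood at 624, 1204, 1750 and 1208 CPM in library 1 and 668, 1203, 1779 and 1114 CPM in library 2. In the pro-B gate of library 2 Vpreb1a was higher, with overlapping intervals. The immature gate was highest, with intervals of 1673 to 1829 and 1723 to 1837 CPM that overlapped no other gate. Ebf1 stood at 432, 623, 702 and 480 CPM in library 1 and at 379, 505, 831 and 507 CPM in library 2. In library 1 the immature interval of 654 to 753 CPM overlapped the pre-B interval of 578 to 672 CPM. Pax5 stood at 170, 263, 367 and 382 CPM and at 99.4, 221, 415 and 329 CPM. Pax5 was thus lower in the pre-B than in the immature gate in both libraries. Il7r stood at 49.6, 158, 249 and 125 CPM in library 1 and at 45.2, 148, 174 and 165 CPM in library 2, where the pre-B, immature and mature intervals overlapped.

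Of the 9 genes, 5 had the same highest gate in both libraries: Rag1, Vpreb3, Ebf1 and Il7r in the immature gate and Igll1 in the pre-B gate. Over all 9523 genes measured the share was 39.9%, so this count is not far from the background. Of the 9, 2 were at least 2-fold higher in the pre-B than in the mature gate in both libraries, against 1.62% of all genes. These were Dntt, by 2.91-fold and 11.7-fold, and Vpreb1a, by 2.11-fold and 2.55-fold, and Igll1 lay close with 1.74-fold and 2.00-fold. In the mature gate Dntt was found in only 4 cells of each library. The count became 1 (Dntt) with a minimum of 2000 UMIs per cell or Ighm limits of 10 and 60, and 0 with an Ighd limit of 1 UMI or with the Bfsp2 cluster left out. None of the 8 members with enough UMIs was 2-fold higher in the pro-B than in the mature gate in both libraries, where the background was 1.66%, and Rag2 had too few UMIs to be counted. Dntt was 16.3-fold higher in the pro-B gate of library 2 but 1.76-fold lower in that of library 1. None of the 9 was 2-fold higher in the immature than in the mature gate in both libraries, against 0.834% of genes, although Rag1 was 2.44-fold and 1.77-fold higher.

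In the mature gate, Dntt and Igll1 were high in cells of the Bfsp2 cluster and Rag1 in cells of the Niban3 cluster. Within the mature gate, the 24 and 33 cells of the Bfsp2 cluster held 860 and 669 CPM of Igll1, whereas the 90 and 102 cells of the Ms4a1 cluster held 0 and 9.35 CPM. Dntt stood at 234 and 46.7 CPM in those Bfsp2 cells and at 0 CPM in the Ms4a1 cells of the gate in both libraries. In the whole mature gate, Dntt rested on 48 UMIs in 4 cells and 13 UMIs in 4 cells, so few cells carry its level. Rag1 stood at 688 and 657 CPM in the 20 and 23 mature gate cells of the Niban3 cluster, against 4.67 and 6.23 CPM in those of the Ms4a1 cluster. Median depth was 7863 and 5932 UMIs in the Bfsp2 cells of the mature gate and 2115 and 2421.5 UMIs in the Ms4a1 cells. A fixed limit of 2 Ighd UMIs is met more readily by a deep cell, and the part of this in the gate was not tested.

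The 9 genes also differed between the 3 clusters. None of the 9 shaped the clusters, but Igll1 and Vpreb1a are the leading genes by fold of the Bfsp2 cluster and Rag1 of the Niban3 cluster, so these levels describe the clusters and are no test. Rag1 stood at 165 (147 to 186) and 141 (125 to 159) CPM in the Bfsp2 cluster, 539 (486 to 598) and 411 (375 to 449) in the Niban3 cluster, and 4.27 (1.16 to 10.9) and 14.7 (8.70 to 23.2) in the Ms4a1 cluster. Rag2 followed with 63.2 and 52.2, 81.1 and 74.8, and 2.14 and 5.71 CPM in the same order. Both recombinase genes were thus far lower in the Ms4a1 cluster than in the others.

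Dntt, Igll1 and Vpreb1a were high in the Bfsp2 cluster and lower in the others. Igll1 stood at 740 (700 to 781) and 643 (607 to 680) CPM in the Bfsp2 cluster and at 223 and 37.0 CPM in the Niban3 cluster. In the Ms4a1 cluster it had 0 UMIs in library 1, with an interval up to 3.94 CPM, and 2.45 CPM in library 2. Vpreb1a had 585 and 466, 223 and 46.2, and 2.14 and 2.45 CPM in the 3 clusters. Dntt had 260 and 212, 57.5 and 11.8, and 1.07 and 0.815 CPM. Levels of these genes in the Niban3 cluster were thus not alike in the 2 libraries, with Poisson intervals that did not overlap. For Igll1 and Vpreb1a the intervals of the share of cells with a UMI did not overlap either. For Dntt they did, at 3.12% (1.57 to 5.51) and 0.743% (0.203 to 1.89). Its values rest on 39 UMIs in 11 cells and 14 UMIs in 4 cells, so few cells carry its difference.

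Vpreb3, Ebf1 and Pax5 stood at 233 CPM or more in all 3 clusters of both libraries, while Il7r was low in the Ms4a1 cluster. Vpreb3 was highest in the Niban3 cluster, at 2230 and 2215 CPM, with 1557 and 1700 CPM in the Bfsp2 cluster and 233 and 534 CPM in the Ms4a1 cluster. Ebf1 had 653 and 698, 1011 and 1048, and 355 and 437 CPM. Pax5 had 288 and 303, 427 and 420, and 322 and 381 CPM, the narrowest range of the 9 as a ratio of highest to lowest. Il7r had 246 and 229 CPM in the Bfsp2 cluster and 252 and 229 CPM in the Niban3 cluster, whose intervals overlapped, but 12.8 and 10.6 CPM in the Ms4a1 cluster.

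**Figure D2:**
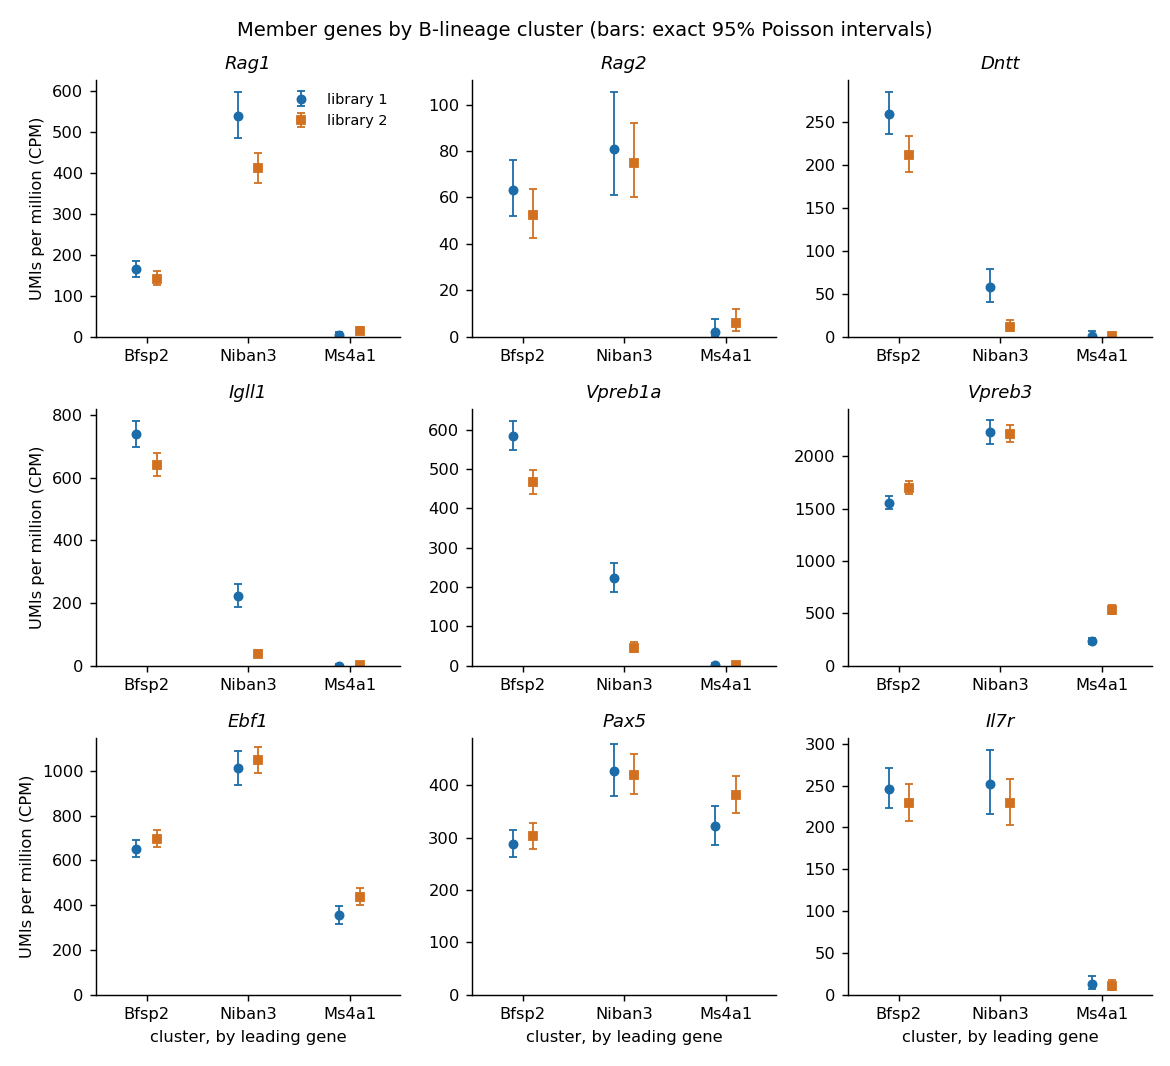
Level of each of the 9 genes, in CPM on a linear axis from 0, in the 3 B-lineage clusters of library 1 (circles) and library 2 (squares), with exact 95% Poisson intervals. Dntt, Igll1 and Vpreb1a are highest in the Bfsp2 cluster, Rag1 and Vpreb3 in the Niban3 cluster, and Pax5 keeps 322 and 381 CPM in the Ms4a1 cluster.

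Cells outside the mature gate were also split by Ighm into finer bins, whose edges include the gate limits of 5 and 30. Dntt stood at 304 and 293 CPM in cells with 5 to 15 Ighm UMIs per 10000, at 285 and 174 CPM at 15 to 30, at 90.1 and 55.6 CPM at 30 to 60, and at 0 and 3.43 CPM at 60 to 120. Igll1 had 639 and 383, 714 and 615, 393 and 280, and 126 and 18.3 CPM in the same bins, and 50.8 and 4.30 CPM at 120 or more. Vpreb1a had 633 and 392, 546 and 385, 367 and 188, 98.4 and 33.1, and 20.3 and 12.9 CPM. All 3 genes were lower at 30 to 60 than at 15 to 30 in both libraries, with intervals that did not overlap. Dntt in library 2 was already lower at 15 to 30 (147 to 204) than at 5 to 15 (244 to 349), which was not seen in library 1.

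Rag1 ran the other way over most of the range. It stood at 119 and 130, 191 and 93.8, 225 and 140, 443 and 293, and 254 and 400 CPM in these bins, with its lowest value in library 2 at 15 to 30. Pax5 had 233 and 177 CPM in the lowest of these bins and 454 and 478 CPM at 60 to 120. Vpreb3 had 1085 and 843 CPM there and 1817 and 1779 CPM at 60 to 120. Il7r was highest at 30 to 60, with 287 and 214 CPM. The highest bin held 51 and 130 cells. In library 1, Rag1 and Ebf1 were lower there than at 60 to 120, with intervals that did not overlap. The intervals of the other genes overlapped in library 1, with Dntt at 0 in both bins. In library 2 the direction was reversed. Ebf1 was higher in the highest bin, at 1046 (919 to 1186) CPM against 847 (787 to 911) CPM at 60 to 120. Rag1 was also higher there in library 2, with overlapping intervals. How many of all genes were lower or higher in this bin was not counted.

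**Figure D3:**
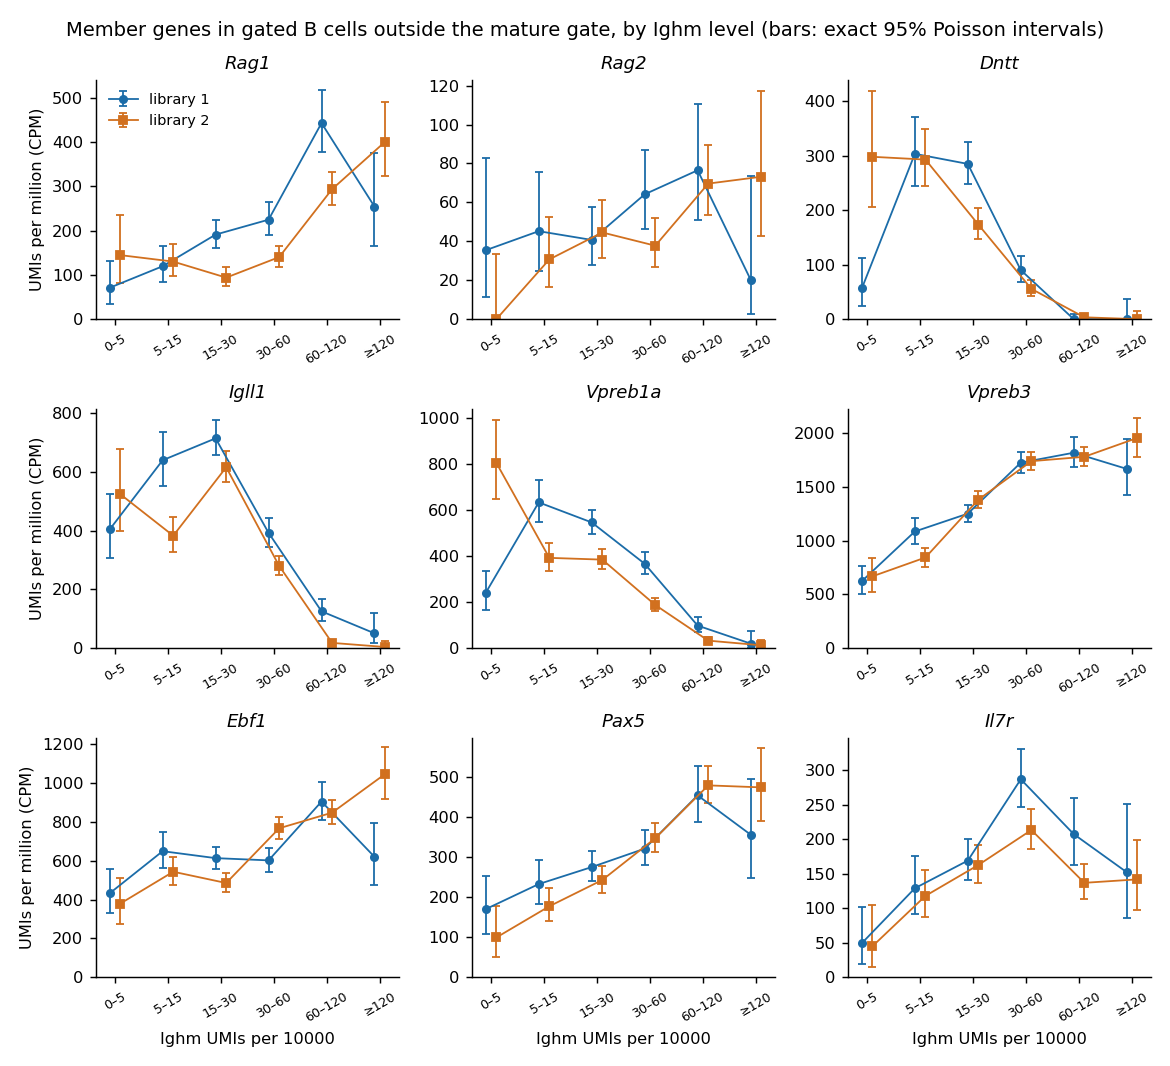
Level of each of the 9 genes, in CPM on a linear axis from 0, in gated cells outside the mature gate, binned by Ighm UMIs per 10000, for library 1 (circles) and library 2 (squares), with exact 95% Poisson intervals. Dntt, Igll1 and Vpreb1a fall at 30 or more Ighm UMIs per 10000, and Rag1, Vpreb3 and Pax5 are higher at 60 to 120 than at 5 to 15.

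Cycling and resting cells were set apart by 6 genes of cell division, Mki67, Top2a, Cdk1, Ccna2, Birc5 and Cenpf. Cycling cells had at least 5 UMIs of these per 10000, and the cells they were set against had none. Within the pre-B gate, 113 and 99 cells were cycling and 73 and 85 had no such UMI. The gate included 48 and 37 cells of the Ms4a1 cluster, which had 0 UMIs of Rag1, Dntt, Igll1 and Vpreb1a. Over the whole Ms4a1 cluster, 378 of 448 and 358 of 482 cells had no cycling UMI. The part of these cells in the split of the gate was not tested. Rag1 stood at 151 and 78.6 CPM in cycling pre-B gate cells, against 285 and 186 CPM in those without cycling UMIs, a level 1.89-fold and 2.36-fold lower. Ebf1 stood at 575 and 445 CPM in cycling cells, against 918 and 814 CPM in the others. Other members did not follow. Il7r was higher in cycling cells, at 169 and 178 CPM, against 127 and 82.1 CPM in the others, with overlapping intervals in library 1. Dntt stood at 295 and 192 CPM in cycling cells, against 139 and 325 CPM in the others, so it was 2.12-fold higher in cycling cells of library 1 and 1.69-fold lower in those of library 2. Igll1 and Vpreb1a also had opposite directions in the libraries, at 1.24-fold and 1.27-fold higher in cycling cells of library 1 and 1.24-fold and 1.71-fold lower in those of library 2. The intervals of Igll1 overlapped in both libraries and those of Vpreb1a in library 1. None of the 9 was at least 2-fold lower in cycling cells in both libraries, where 5.27% of genes were. Median depth was 5499 and 6571 UMIs in cycling cells, against 1862 and 2425 UMIs in cells without cycling UMIs.

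Inside the Bfsp2 cluster, a split chosen after the data had been seen, 6 of the 9 were at least 2-fold lower in the 247 and 251 cycling cells than in the 30 and 50 cells without cycling UMIs, in both libraries, against 5.4% of genes. These were Rag1, Rag2, Dntt, Igll1, Vpreb1a and Ebf1. The 6 cycling genes were not left out of the clustering, and Igll1, Vpreb1a and Dntt are among the leading genes of this cluster. The count therefore describes the cells of this cluster and is no test. Rag1 stood at 137 (120 to 157) and 113 (97.7 to 130) CPM in cycling cells, against 640 (467 to 857) and 439 (343 to 554) CPM in the others, or 4.66-fold and 3.89-fold lower. The level without cycling UMIs overlapped that of the Niban3 cluster in both libraries. Rag2 stood at 59.3 and 41.7 CPM in cycling cells, against 128 and 167 CPM in the others. Its intervals overlapped in library 1, where its level without cycling UMIs rests on 9 UMIs in 5 cells. Dntt stood at 218 and 152 CPM in cycling cells, against 541 and 835 CPM in the others. Igll1 stood at 622 and 543 CPM, against 1907 and 1646 CPM, and Vpreb1a at 468 and 351 CPM, against 1608 and 1652 CPM. With no doublets removed, 2 of the 9 passed this limit, Rag1 and Vpreb1a.

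Vpreb3, Pax5 and Il7r did not pass this limit in both libraries. Vpreb3 stood at 1487 and 1629 CPM in cycling Bfsp2 cells, against 2504 and 2351 CPM in those without cycling UMIs. Pax5 stood at 298 and 302 CPM in cycling cells, against 199 and 303 CPM, with overlapping intervals in both libraries. Il7r stood at 241 and 238 CPM in cycling cells, against 356 and 148 CPM in the others. The cycling cells had medians of 4779 and 5172 UMIs. Cells without cycling UMIs were shallower, with medians of 1822.5 and 2600 UMIs. Whether shallow cycling cells lie among them was not tested.

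**Figure D4:**
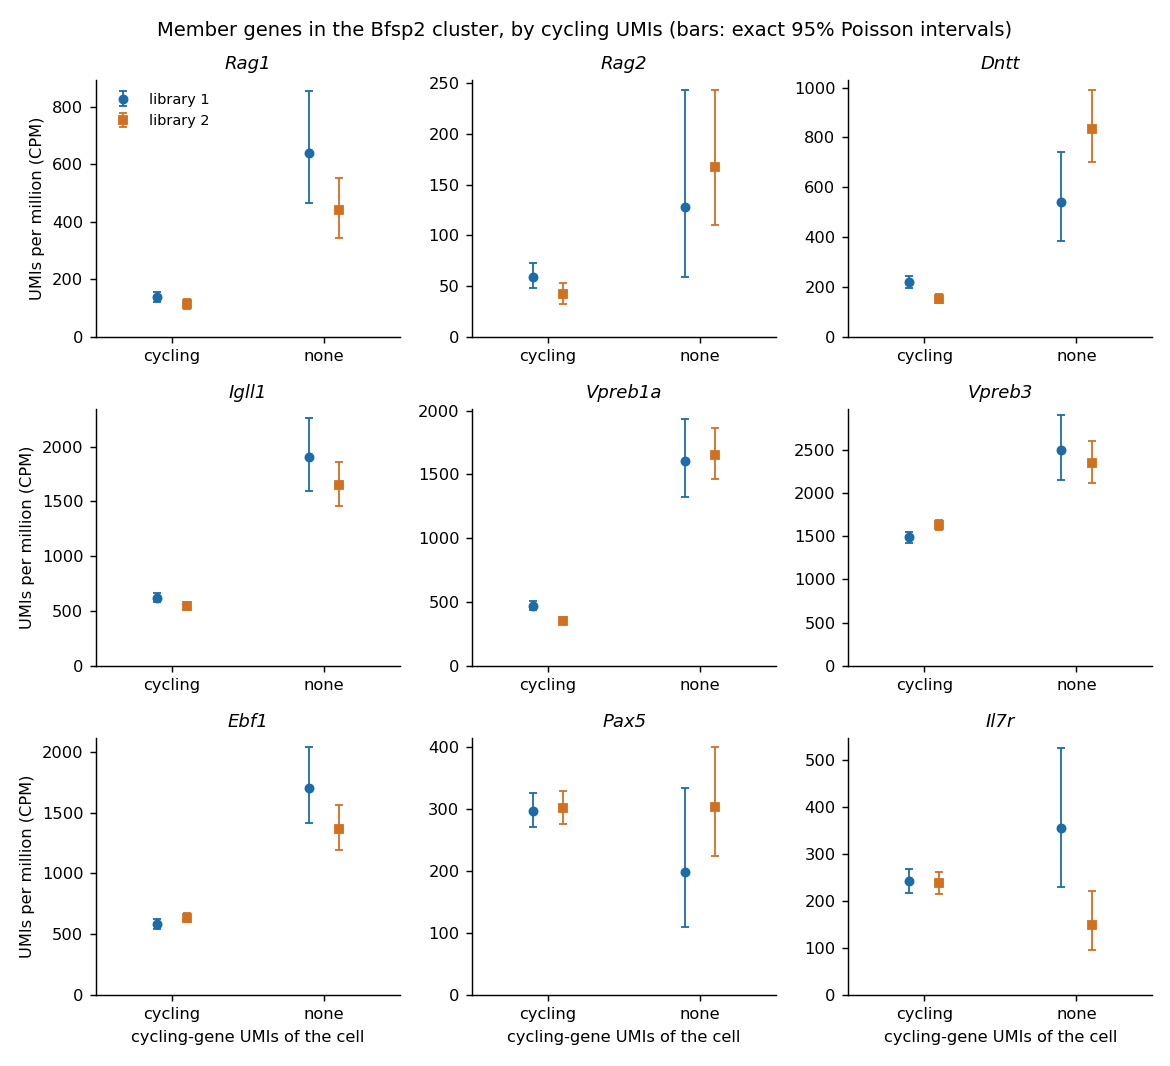
Level of each of the 9 genes, in CPM on a linear axis from 0, in cells of the Bfsp2 cluster with at least 5 cycling UMIs per 10000 (left) and with none (right), for library 1 (circles) and library 2 (squares), with exact 95% Poisson intervals. Rag1, Rag2, Dntt, Igll1, Vpreb1a and Ebf1 are at least 2-fold lower in cycling cells in both libraries, though the intervals of Rag2 overlap in library 1. Vpreb3 is 1.68-fold and 1.44-fold lower, and the intervals of Pax5 overlap.

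Rag1, Rag2, Igll1, Vpreb1a, Vpreb3 and Pax5 were found mainly in B-lineage cells, while Dntt, Ebf1 and Il7r were also found in other classes. In 7 of the 9, the highest gate lay at least 2-fold above each of the 19 other cell classes ranked, those of 30 cells or more in each library, against 1.33% of all genes. The exceptions were Ebf1, at 1.71-fold and 2.35-fold, and Il7r, at 1.05-fold in library 1 and 2.05-fold lower than the highest other class in library 2. Gated cells or B-lineage clusters held 93.9% and 96.1% of the Rag1 UMIs found in cells, 94.4% and 94.6% of those of Igll1, and 93.0% and 94.5% of those of Pax5. They held 71.8% and 44.3% of Dntt, 62.6% and 63.2% of Ebf1 and 43.1% and 35.5% of Il7r.

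Ebf1 was also high in vessel wall and stromal cells. Pericyte- or smooth muscle-like cells had 411 (350 to 480) and 353 (297 to 417) CPM. Marrow stroma-like cells had 120 (104 to 139) and 140 (127 to 155) CPM. Endothelial-like cells had 82.6 and 86.4 CPM, and fibroblast- or ligament-like cells had 44.0 and 42.1 CPM. It stood at 11.7 and 11.9 CPM in mature neutrophil-like cells, and at 134 and 113 CPM in barcodes with at most 100 UMIs. The gated cells held 3947 and 6163 UMIs of Vpreb3 and 1761 and 2803 of Ebf1, and mature neutrophil-like cells held 43 and 21 of Vpreb3 and 64 and 57 of Ebf1. The pericyte- or smooth muscle-like class had 0 and 13 UMIs of Vpreb3 beside 160 and 139 of Ebf1. Of these cells 67.4% and 51.7% had an Ebf1 UMI, against 2.38% and 3.01% of mature neutrophil-like cells.

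Il7r was found in several other blood cell classes. Plasmacytoid dendritic-like cells had 237 (189 to 293) and 356 (323 to 393) CPM. T-like cells, whose development depends on IL-7, had 207 (180 to 237) and 135 (112 to 162) CPM. Basophil- or mast-like cells held 131 and 140 CPM, from 33 and 58 cells, and monocyte-like cells 91.8 and 78.4 CPM. Macrophage-like cells held 25.6 (16.9 to 37.3) CPM in library 1 and 97.9 (80.7 to 118) in library 2. Mature neutrophil-like cells held 2.37 and 2.08 CPM. The immature gate, at 249 and 174 CPM, lay within counting error of the plasmacytoid dendritic-like cells in library 1 and below them in library 2.

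Dntt occurred outside the B lineage in an unnamed cluster led by Hoxa9, Muc13 and Flt3, where 6 of the 7 stem or early progenitor markers were raised. It stood there at 85.5 (71.0 to 102) and 126 (114 to 139) CPM, and 16.0% and 22.6% of cells had a UMI. The same cells held 1.41 and 1.60 CPM of Igll1, and 0 and 0.639 CPM of Rag1. Plasmacytoid dendritic-like cells held 73.3 (47.9 to 107) and 88.2 (71.8 to 107) CPM of Dntt, with no Igll1 UMI in either library. Mature neutrophil-like cells held 1.09 and 1.04 CPM of Dntt. In the gated cells, 433 and 377 UMIs of Dntt stood beside 1316 and 1235 of Igll1.

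**Figure D5:**
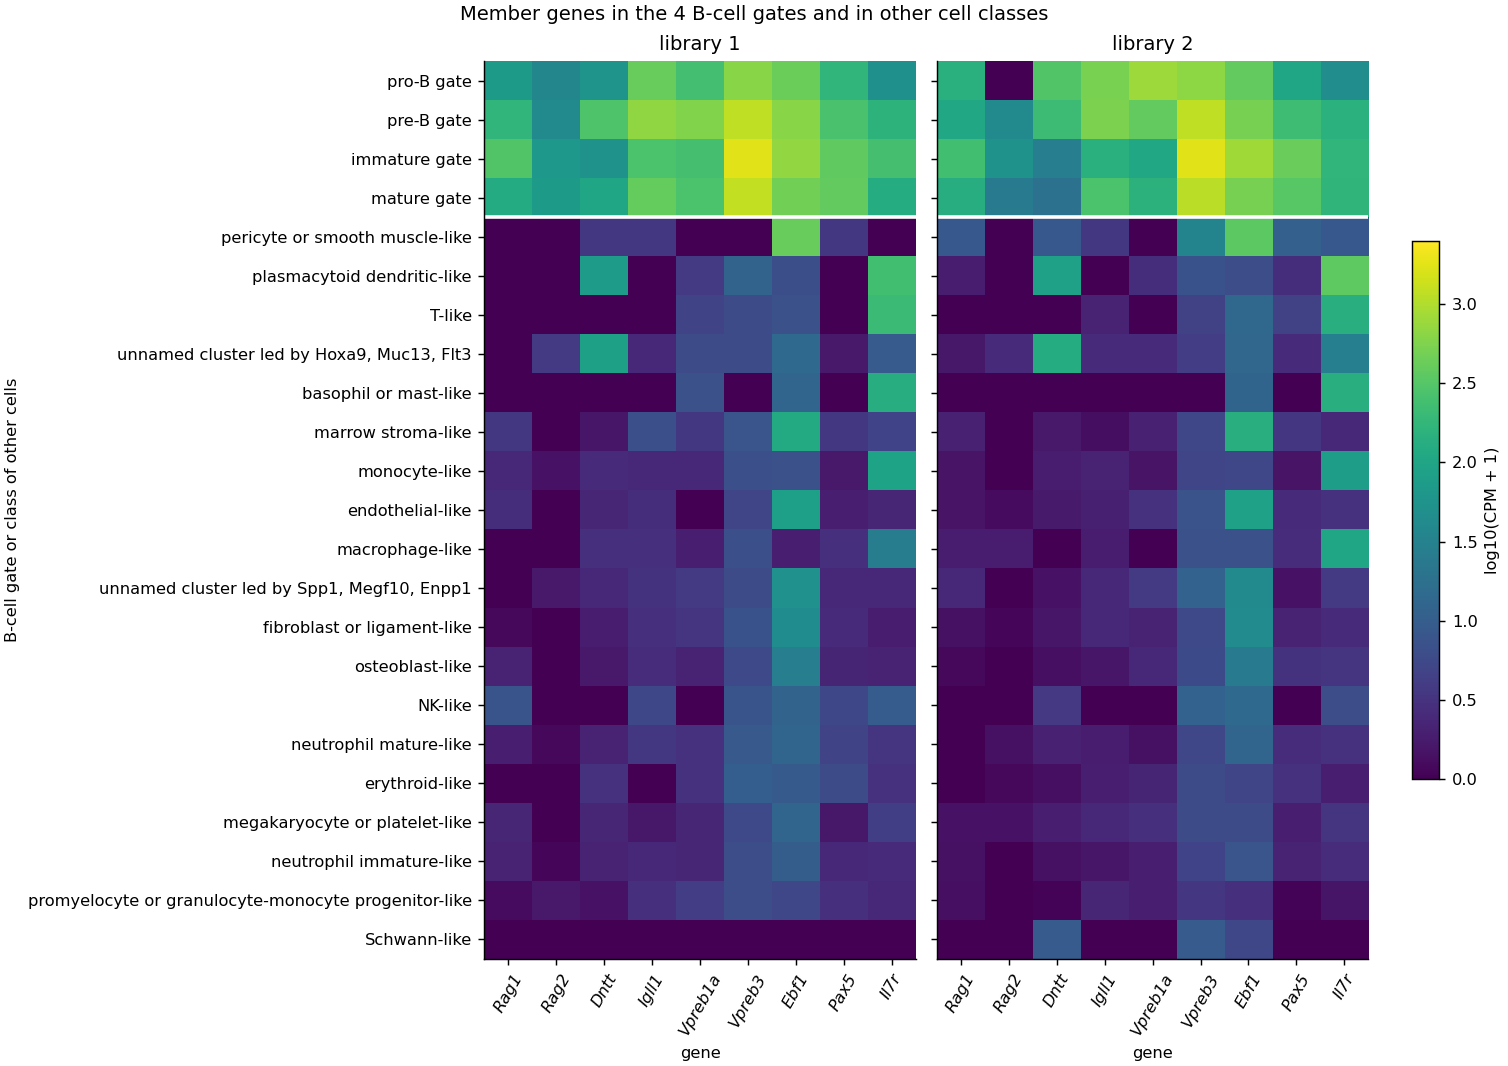
Level of each of the 9 genes as log10(CPM + 1) by colour, in the 4 B-cell gates (above the white line) and in the 19 other ranked cell classes, library 1 on the left. Besides the gates, Ebf1 is bright in pericyte- or smooth muscle-like cells, Il7r in plasmacytoid dendritic-like, T-like and basophil- or mast-like cells, and Dntt in plasmacytoid dendritic-like cells and the Hoxa9 cluster.

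Other genes of the pathway were followed by lists, as counts of genes at least 2-fold different between the pre-B and the mature gate in both libraries. Over all 7908 genes measured, 128 were higher (1.62%) and 128 lower (1.62%), with medians of -0.03 and -0.03 on the log2 scale. Among 10 measured genes of end joining, which closes the breaks made by the recombinase, 1 was higher and none lower. This was Xrcc5, which encodes the Ku80 subunit, at 17.3 and 22.7 CPM in the pre-B gate, and the list's median log2 ratios were 0.21 and 0.16. Of 14 genes of receptor signalling, none was higher and 1 lower, the adaptor gene Bank1, at 34.7 and 37.6 CPM in the pre-B gate, with list medians of -0.61 and -0.71. Of 19 B-lineage transcription factors, 1 was lower, Pou2f2, which encodes OCT2. Of 12 genes of IL-7 and TSLP signalling, 1 was lower, Il2rg, the receptor chain that IL7R shares with other receptors, at 108 and 107 CPM in the pre-B gate.

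The light chain genes moved against the surrogate light chain genes. Igkc was lower in the pre-B gate, at 809 and 1306 CPM, against 2198 and 3234 CPM in the mature gate, and Iglc1, Iglc2 and Iglc3 were lower as well. The lambda constant region genes are similar in sequence and may share reads. Vpreb1b was higher, with log2 ratios of 2.72 and 1.20. Of 11 mature B-cell genes, 9 were lower in the pre-B gate, with medians of -1.59 and -1.82. Cd74, which guides antigen presentation by MHC class II, had log2 ratios of -2.01 and -2.03. Ms4a1 had -1.68 and -2.19, and Cxcr5, the receptor that draws B cells into follicles, -1.93 and -2.03. Of 7 early surface genes, Kit, a receptor of early progenitors, was higher, at 55.7 and 48.6 CPM in the pre-B gate, and Il2ra, which encodes the IL-2 receptor chain CD25, was lower, at 13.7 and 7.84 CPM. Il2ra had 70.7 and 112 CPM in the Niban3 cluster, against 24.3 and 17.9 CPM in the Bfsp2 cluster.

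The genes most like each member were sought over 23 points, the 4 gates and 19 classes, by the lower of the 2 libraries' Pearson r of log2(CPM + 1) among 14619 genes. The points of a library share its depth and free RNA, so these values are a description. As 19 of the 23 points lie outside the gates, a high r need not mean a shared course within the B lineage. Rag1, for example, was highest in the immature gate and Igll1 in the pre-B gate. Rag1 was most like Igll1, with r of 0.959 and 0.962, and Pax5 was most like Rag1, with 0.950 and 0.966. Vpreb1a was most like its paralog Vpreb1b, with 0.945 and 0.967, and Vpreb3 most like Pax5, with 0.945 and 0.953. Rag2 was most like Klhl14, with 0.947 and 0.959, Dntt most like Gm32196, with 0.924 and 0.871, and Ebf1 most like Cplx2, with 0.904 and 0.902. Il7r was most like E330020D12Rik, with 0.897 and 0.899. The second place went to 4930426D05Rik for Rag1 and Vpreb3, to 1700027J07Rik for Igll1 and Vpreb1a, and to Gm45745, Sapcd1, 2900026A02Rik, Gm51802 and H2-Oa for Rag2, Dntt, Ebf1, Pax5 and Il7r in turn.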

How the data were processed

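Alveolar bone cells of 2 pools were measured as single-cell RNA libraries made with a GEXSCOPE kit, per the labels. The deposited matrices hold raw counts of UMIs per feature and barcode, unfiltered. FastQC 0.11.9 and the builds GRCh38 and mm10 stand in the submitters' processing notes, with no role for either build. The aligner is not given in the sources used here, nor are the counter and the annotation. Features without a symbol (42693 of 99819, with 0.602% and 0.431% of UMIs) were left out.

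Cells needed 500 UMIs or, if higher, the UMIs at the inflection of the ranked barcode totals (738 and 1222), 200 genes and at most 20% mitochondrial UMIs. Scrublet's own threshold marked 0 and 1 cells and so had not worked, so the top 5% by score (505 and 586 cells) were taken out and doublets may remain. All cells were clustered in 1 run, with no batch correction, with scanpy 1.11.5 (1984 variable genes, without the 9 genes, Vpreb1b, the gating genes and sex-linked, mitochondrial and ribosomal genes, 30 components, 15 neighbours, Leiden resolution 1). Of 27 clusters, 24 were named by markers. Naming needed at least 3 markers and 50% of a list raised 3-fold, with 1 marker among the 10 leading genes or 80% raised, and no other list with more genes among these 10. These limits were set after the leading genes had been seen.

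A gene was counted in a comparison if it had at least 20 UMIs in both sides together in each library, and levels under 0.5 UMIs were set to 0.5 UMIs. The 2-fold limit had to be met in both libraries. The ratio step was tested on simulated counts. The genes named are the 9 members, the list genes past this limit, up to 6 per list, and the 2 genes most like each member. Members, lists, gates and limits were chosen with earlier results of these data known. Thinned shares are expected shares of cells with a UMI after drawing 1000 UMIs per cell, with shallower cells left out. Promoters are from RefSeq (GRCm38.p6) and transcripts from GENCODE M21, matched by gene identifier, and all 9 members had a promoter entry. The alternatives were other cell, gate and Ighm limits, all doublets kept, B-lineage clusters only, and means over cells.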

Additional observations from a re-analysis of the deposited data

How the results depend on the processing

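No paired analysis was possible because the labels put neither library in a group, and no library could be left out, since each is given on its own. The 7 counts were recomputed under 14 other settings, 12 chosen with the design and 2 added after the data had been seen (cells with 20 or more Jchain UMIs left out, and gated cells of the Bfsp2 cluster left out). The 7 genes with a gate at least 2-fold above each other class stayed within 1.5 times that count under every setting run. The 2 genes higher in the pre-B than in the mature gate became 1 (Dntt) with a minimum of 2000 UMIs and with Ighm limits of 10 and 60, and 0 with an Ighd limit of 1 UMI and without the Bfsp2 cluster. The count higher in the pro-B than in the mature gate became 1 (Igll1) with B-lineage clusters only and 3 (Dntt, Igll1 and Vpreb1a) with means over cells. The count higher in the immature gate became 1 (Rag1) with Ighm limits of 10 and 60 and with means over cells, and 3 (Rag1, Rag2 and Vpreb3) without the Bfsp2 cluster. The count lower in cycling pre-B gate cells became 1 (Rag1) with 2000 UMIs and with an Ighd limit of 1 UMI, and 2 (Ebf1 and Pax5) without the Bfsp2 cluster. The 6 genes lower in cycling cells of the Bfsp2 cluster became 2 (Rag1 and Vpreb1a) with no doublets removed. That count has no value where the cluster is left out. The 5 genes with the same highest gate became 9 with a gate of 2 UMIs of Cd79a and Cd79b, and 3 with a gate of 10 per 10000 and with B-lineage clusters only. The cause was not tested. Of 1008 other levels by gate, 729 stayed within their 95% interval and 279 moved. The 35 and 21 cells of the pro-B gate limit every statement about it.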
